A study of Mus musculus with 8 samples.

Results

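Kit, Erbb3, Met and Ednrb encode cell surface receptors that melanocytes and their precursors use to read signals from the skin, and the chromatin around these genes was examined in 6 lists of ChIP-seq peaks. The members are all peaks within 50 kb of the mm9 spans chr5:75971000-76053000 (Kit), chr10:128006000-128026000 (Erbb3), chr6:17414000-17524000 (Met) and chr14:104213000-104243000 (Ednrb). They number 269 of 311378 peaks: 13 and 18 of SOX10 replicates 1 and 2, 85 and 93 of H3K27ac, and 31 and 29 of H3K27me3. All libraries came from melan-Ink4a-Arf-1 (melan-a), a mouse melanocyte line from embryonic skin with the genotype Cdkn2a tm1RDp/tm1RDp, kept in medium with serum, 200 nM of the phorbol ester 12-O-tetradecanoylphorbol 13-acetate and 200 pM cholera toxin. Each antibody was used in 2 independent experiments, and SOX10 and the histone marks had an input library each. There was no other genotype, treatment or cell type, so loci and marks are compared within 1 line and no test between groups was made. The lists hold no expression, so the melanocyte label was not checked against marker genes.

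KIT, ERBB3 and MET are receptor tyrosine kinases, which pair when their ligand binds and phosphorylate each other and their partners inside the cell. KIT binds stem cell factor, MET binds hepatocyte growth factor, and ERBB3 binds neuregulins but has little kinase activity of its own and signals through partners such as ERBB2. EDNRB is a G protein-coupled receptor for endothelins, and loss of Kit or Ednrb function causes white spotting in mice. SOX10 is an HMG-box transcription factor of the neural crest lineage, H3K27ac marks active promoters and enhancers, and H3K27me3 is laid down by Polycomb repressive complex 2.

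The 250 bases before the gene start are shown for Kit, Met and Ednrb, the 3 members other than Erbb3 that matched an entry of the promoter table, to set the Met 5′ end, acetylated in both H3K27ac libraries, beside those of Kit and Ednrb, acetylated in neither. They are RefSeq sequences of the build GRCm38.p6, whose positions are not those of mm9 used in the rest of the text, and they run 5′ to 3′ on the gene's strand. The Kit sequence is chr5:75574737-75574986 (plus strand), the Met sequence chr6:17463707-17463956 (plus strand) and the Ednrb sequence chr14:103843702-103843951 (minus strand). Capitals mark matches, on either strand, to 4 short motifs chosen with the sequences in view: ACAAAG and ACAATG (cores that SOX proteins bind), TGAGTCA (AP-1) and CACGTG (an E-box read by MITF and other bHLH factors).
Kit: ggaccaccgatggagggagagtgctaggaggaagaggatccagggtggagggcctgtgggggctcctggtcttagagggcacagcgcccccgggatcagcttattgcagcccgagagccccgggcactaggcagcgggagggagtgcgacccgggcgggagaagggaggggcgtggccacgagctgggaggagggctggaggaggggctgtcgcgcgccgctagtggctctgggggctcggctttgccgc
Met: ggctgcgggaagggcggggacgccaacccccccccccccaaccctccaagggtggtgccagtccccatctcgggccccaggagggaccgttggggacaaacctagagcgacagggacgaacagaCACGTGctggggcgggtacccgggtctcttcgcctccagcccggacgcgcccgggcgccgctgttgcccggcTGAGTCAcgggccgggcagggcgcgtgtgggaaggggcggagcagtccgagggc
Ednrb: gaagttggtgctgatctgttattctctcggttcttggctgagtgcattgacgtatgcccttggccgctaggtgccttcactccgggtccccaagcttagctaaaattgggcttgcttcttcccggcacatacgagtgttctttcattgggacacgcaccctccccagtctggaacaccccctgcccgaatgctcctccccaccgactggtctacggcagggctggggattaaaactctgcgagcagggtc

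The Met sequence held an E-box 126 bases before the start and an AP-1 motif 54 bases before it, and neither SOX core. The Kit and Ednrb sequences held none of the 4 motifs. Of 27025 promoters of the same length, 6.05% held the E-box, 4.43% the AP-1 motif, 16.5% ACAAAG, 11% ACAATG and 25.5% at least 1 of these SOX cores. All 3 sequences were richer in G and C than the median promoter (52%), with 70.8% for Kit, 74% for Met and 56.8% for Ednrb. They held 17, 24 and 11 CG pairs against a median of 6. A match describes these letters and is no binding site.

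Met and Erbb3 were densely acetylated and carried SOX10 at their 5′ ends, whereas Kit and Ednrb had no H3K27ac region and no SOX10 site inside the gene that both replicates shared. Regions with a peak of each replicate are called consensus regions. Their tags are summed over a replicate's peaks in the region, and their fold is that of its strongest peak. Their summit is that of the peak with the highest fold in either replicate. Within the windows, SOX10 had 6 such regions at Met, 2 at Erbb3 and 1 each at Kit and Ednrb. H3K27ac had 31 at Met, 14 at Erbb3, 2 at Ednrb and 0 at Kit, and H3K27me3 had 12 at Met, 2 at Erbb3 and 0 at Kit and at Ednrb. At a stricter p cutoff, described below, the SOX10 regions over the Met 5′ edge and just upstream of the Erbb3 span were no longer shared.

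To read these counts, the numbered chromosomes and X were cut into abutting windows as long as each gene's. Of 210 kb windows, 0.128% held at least the 6 SOX10 regions of Met, 1.49% at least its 31 H3K27ac regions and 6.51% at least its 12 H3K27me3 regions. Of 120 kb windows, 3.64% held at least the 2 SOX10 regions of Erbb3, 3.31% at least its 14 H3K27ac regions and 21.1% at least its 2 H3K27me3 regions. The Kit counts were common ones: 19.8% of 182 kb windows held at least 1 SOX10 region, 66.3% no H3K27ac region and 65.3% no H3K27me3 region. Of 130 kb windows, as at Ednrb, 15.3% held at least 1 SOX10 region, 21.5% at least 2 H3K27ac regions and 70.1% no H3K27me3 region. The windows include gene-poor sequence and the sequence of the 4 genes themselves, and are a background of position only.

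**Figure D1:**
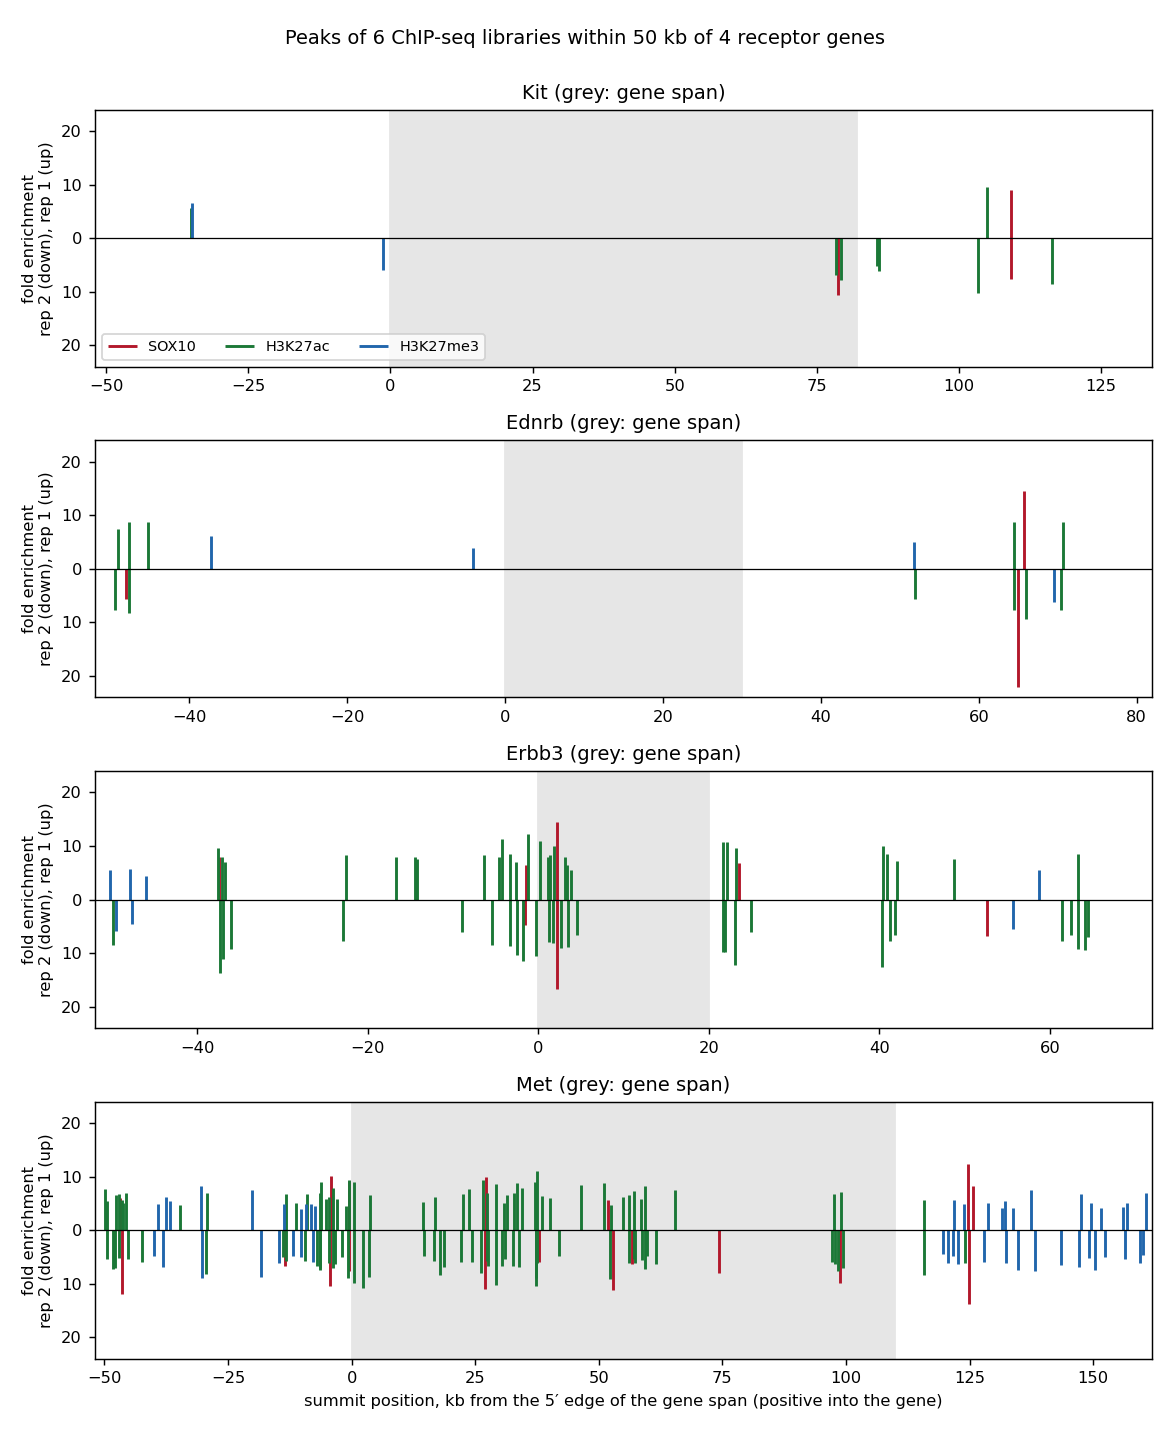
Peaks of the 6 libraries at the 4 genes: the x axis is the distance in kb from the 5′ edge of the gene span (grey), the y axis the authors' fold enrichment, upward for replicate 1 and downward for replicate 2, with SOX10 in red, H3K27ac in green and H3K27me3 in blue. Peaks crowd around the 5′ edges of Erbb3 and Met, the Ednrb span holds none, and the Kit span holds peaks of replicate 2 only, near its 3′ edge.

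Replicates shared the members' peaks at least about as often as peaks in general. Of the SOX10 members, 11 of 13 in replicate 1 and 10 of 18 in replicate 2 overlapped a peak of the other list, where 65.4% and 43.6% of all SOX10 peaks did. For H3K27ac it was 57 of 85 and 57 of 93 (64% and 59.6% of all peaks), and for H3K27me3 21 of 31 and 20 of 29 (46.8% and 52.6%). The libraries kept 6440395 and 8985699 SOX10 tags, 45583056 and 44416913 H3K27ac tags, and 67060647 and 71987481 H3K27me3 tags. The histone libraries were larger than their input of 42782172 tags, and per the file headers the larger library was scaled to the smaller. Whether a listed tag count was taken before or after that scaling is not stated, so tags of the histone marks are given as listed. The smallest H3K27ac peak had 12 tags in either list, so a place without a peak is one where acetylation was not called at this depth. The same holds for SOX10, whose libraries were the smallest. Per the file headers, their redundant rates were 55% and 38%.

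Kit was the barest locus. Its span held no peak of SOX10 replicate 1, of H3K27ac replicate 1 or of either H3K27me3 list. The nearest H3K27ac consensus region lay 529.9 kb upstream of the span on the 5′ side and 560.3 kb beyond it on the 3′ side. The stretch of 1172 kb between them was not rare in length, since 53.2% of the sequence lay in stretches at least as long. Per RefSeq, the flanking coding genes are Pdgfra on the 5′ side and Kdr on the 3′ side, which also encode receptor tyrosine kinases.

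The SOX10 site that both replicates shared at Kit lay past the 3′ end, at chr5:76079680-76081026, with its summit 27.1 kb beyond the 3′ edge. It held 41 tags in replicate 1 and 44 in replicate 2, with folds over the local input of 8.96 and 7.69 (8.33 ± 0.898, SD, n = 2). The replicates' summits were 13 bp apart, and 21.0% of all 4159 SOX10 consensus sites had a lower mean fold. No H3K27ac consensus region lay within 1 kb of the summit.

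Inside the Kit span, replicate 2 alone had a SOX10 peak, at chr5:76049214-76050363, with its summit 78.7 kb from the 5′ edge and 3.3 kb before the 3′ edge. It had 35 tags and a fold of 10.6. Replicate 2 of H3K27ac had a peak on each side of that summit, the first with 14 tags and a fold of 6.86 and the second with 18 tags and a fold of 7.71. None of these 3 peaks was called in the other replicate of its antibody.

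The other H3K27ac peaks at Kit were also called in a single replicate, 2 in replicate 1 and 4 in replicate 2, all outside the span. They had 14 to 39 tags and folds from 5.21 to 10.3. H3K27me3 replicate 2 had a peak just before the gene, at chr5:75969013-75970071, with 77 tags, a fold of 5.90 and its summit 1.3 kb upstream of the 5′ edge. H3K27me3 replicate 1 instead had a peak 34.8 kb upstream, with 73 tags and a fold of 6.56. Neither histone mark therefore had a region at the Kit 5′ end that both libraries called, and the nearest H3K27me3 consensus regions were 343.7 kb and 319.5 kb from the span.

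Erbb3 was acetylated across the 5′ edge of its span, with SOX10 on both sides of that edge. The H3K27ac region over the edge, chr10:128025443-128026764, held 201 tags in replicate 1 and 200 in replicate 2, with folds of 10.9 and 10.5 (10.7 ± 0.255, SD, n = 2). The next region on the upstream side, chr10:128026894-128027993, had the highest mean fold of H3K27ac at the locus, with 12.2 and 11.4 (11.8 ± 0.516, SD, n = 2), and 92.6% of all H3K27ac consensus regions had a lower one. From 3.9 kb inside the gene to 3.4 kb upstream, 6 H3K27ac regions followed each other with gaps under 1 kb. This stretch of 7385 bp was wider than 97.5% of 19832 such stretches in the genome.

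The stronger SOX10 site of Erbb3, chr10:128023237-128025743, lay inside the gene with its summit 2.2 kb from the 5′ edge. Replicate 1 had 43 tags there with a fold of 14.6, and replicate 2 had 129 tags with a fold of 16.6 (15.6 ± 1.45, SD, n = 2). The summits were 41 bp apart, and 77.8% of SOX10 consensus sites had a lower fold. It overlapped 3 H3K27ac regions, but its summit sat in a gap between them, 235 bp from H3K27ac on the 5′ side and 193 bp on the 3′ side.

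The other SOX10 site of Erbb3, chr10:128026007-128027851, lay upstream of the span with its summit 1.4 kb from the 5′ edge and inside an H3K27ac region. It held 65 and 69 tags, yet its folds were low, with 6.40 and 4.72 (5.56 ± 1.19, SD, n = 2), and 2.55% of consensus sites had a lower one. The background recovered from the tags and p value of each peak was 4.12 and 4.03 times the genome-wide level. Both values rest on the same SOX10 input library and are not independent.

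Further H3K27ac regions stood away from the Erbb3 5′ end, in sequence that holds other genes. RefSeq places 6 coding genes within 50 kb: Pa2g4, Rpl41, Zc3h10 and Esyt1 on the 3′ side, and Rps26, which encodes a ribosomal protein, and Ikzf4 on the 5′ side. H3K27ac in these flanks therefore cannot be assigned to Erbb3. The RefSeq gene is 22113 bp long against 20001 bp for the span, and which edge falls short is not known here. The SOX10 site upstream of the span may thus lie partly in the gene. Likewise, 3 regions with summits 1.7 to 3.1 kb past the 3′ edge may lie at the gene's end or beyond it. The widest of them, chr10:128001673-128003080, held 177 and 159 tags with folds of 9.62 and 12.2 (10.9 ± 1.83, SD, n = 2).

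The 2 H3K27ac regions of the Erbb3 window that came next by mean fold were distant from the 5′ end. On the 5′ side, chr10:128063223-128063875 had folds of 9.56 and 13.7 (11.6 ± 2.90, SD, n = 2) and its summit 37.3 kb upstream. On the 3′ side, chr10:127985446-127985951 had 10.0 and 12.6 (11.3 ± 1.80, SD, n = 2) and its summit 20.3 kb past the 3′ edge. These means lay within 1 SD of that of the region next to the 5′ edge.

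SOX10 peaks of single replicates overlapped acetylated regions at both flanks of Erbb3. Replicate 1 had one 3.5 kb past the 3′ edge (68 tags, fold 6.82) and another 37.4 kb upstream (29 tags, fold 7.98). The remaining single peak, of replicate 2, lay 32.6 kb past the 3′ edge and overlapped no H3K27ac consensus region (28 tags, fold 6.86). H3K27me3 had no peak in the Erbb3 span in either list. Its nearest consensus region, chr10:128072882-128074317, began 46.9 kb upstream with 106 and 37 tags and folds of 5.68 and 4.59 (5.13 ± 0.771, SD, n = 2).

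Met had the most regions of all 3 antibodies, laid out in blocks. Acetylation and SOX10 were dense just before the gene and in its 5′ part, while H3K27me3 covered much of both flanks and none of the span. The acetylated region over the 5′ edge, chr6:17413797-17417431, was 3635 bp wide, with 576 and 644 tags and folds of 9.0 and 10.8 (9.89 ± 1.27, SD, n = 2). It had the highest mean fold of the 31 H3K27ac regions. Next came chr6:17450766-17451338, 37.2 kb into the gene, with 8.98 and 10.4 (9.67 ± 0.976, SD, n = 2), and chr6:17442354-17443893, 29.2 kb into the gene, with 8.57 and 10.2 (9.37 ± 1.13, SD, n = 2). These 3 means differed by less than their SDs.

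Of the 31 H3K27ac regions, 20 touched the Met span, 10 lay upstream and 1 downstream. They covered 60.0% of the last 10 kb before the 5′ edge and 39.8% of the first 10 kb of the gene. Coverage was 43.0% from 20 to 30 kb, 32.7% from 50 to 60 kb and 0 from 60 to 90 kb. Past 60 kb the span held 2 regions, 97.5 and 99.3 kb from the 5′ edge, so acetylation of the gene was concentrated towards its 5′ end. Around the edge itself, 6 regions with gaps under 1 kb made a stretch of 10736 bp, wider than 99.0% of all such stretches.

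H3K27me3 covered 89.3% of the bin from 40 to 30 kb upstream of Met, 13.5% of the last 10 kb before it and 0 of every bin inside the span. Consensus regions of H3K27me3 returned 11.2 kb beyond the 3′ edge and covered 99.6% of the bin from 140 to 150 kb. The widest region, chr6:17547428-17562798, was 15371 bp wide with 1282 and 1423 tags and folds of 7.43 and 7.65 (7.54 ± 0.156, SD, n = 2). Of all H3K27me3 consensus regions, 99.8% were narrower. On the upstream side the widest was chr6:17377906-17386607, of 8702 bp, with 870 and 987 tags and folds of 8.30 and 8.96 (8.63 ± 0.467, SD, n = 2). The stretch without an H3K27me3 consensus region between the flanks was 128.4 kb long and held the whole gene. Within it, past the 3′ edge, replicate 2 alone had peaks at chr6:17533501-17534095 and chr6:17534148-17535115, with 36 and 69 tags. The authors' FDR reached 22.65% in replicate 1 and 21.69% in replicate 2 for the H3K27me3 peaks of the Met flanks, both at the upstream region of 8702 bp. The peaks of that region also had the smallest p values of the H3K27me3 members in both lists.

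**Figure D2:**
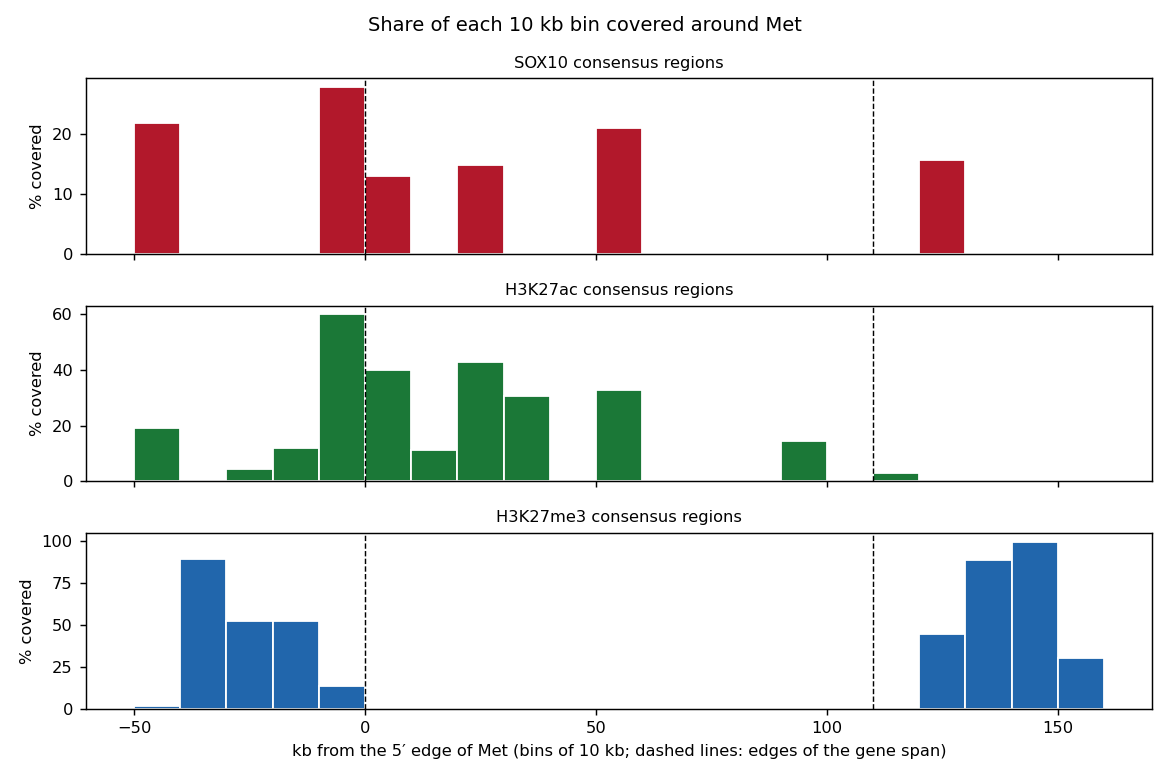
Percent of each 10 kb bin around Met covered by consensus regions of SOX10, H3K27ac and H3K27me3, against the distance in kb from the 5′ edge, with the gene span marked. H3K27me3 covers up to 89.3% of a bin upstream and 99.6% downstream and no bin inside the span, where H3K27ac covers up to 43.0%.

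A single H3K27ac consensus region overlapped an H3K27me3 consensus region at Met. At chr6:17384430-17384866, 29.5 kb upstream, it had 27 and 22 tags with folds of 6.99 and 8.17 (7.58 ± 0.834, SD, n = 2) and sat inside the H3K27me3 region of 8702 bp. It was the only 1 of the 47 H3K27ac consensus regions at the 4 genes with such an overlap, where 1.94% of all H3K27ac regions had one. The regions chr6:17399913-17401120 and chr6:17404440-17404928 lay between H3K27me3 consensus regions of the same flank, and each overlapped an H3K27me3 peak of replicate 1 alone, with 39 and 46 tags.

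The 6 SOX10 sites of Met ran from 46.5 kb upstream of the 5′ edge to 14.8 kb past the 3′ edge. Over the 5′ edge, chr6:17412695-17415301 held 64 and 112 tags with folds of 9.22 and 7.53 (8.38 ± 1.20, SD, n = 2). The recovered background of this site was 5.86 and 5.79 times the genome-wide level, the highest of the 10 SOX10 sites at the 4 genes. The site 4.3 kb upstream, chr6:17409047-17410519, held 35 and 49 tags with nearly equal folds of 10.1 and 10.4 (10.3 ± 0.205, SD, n = 2).

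Inside the gene, chr6:17440120-17441600 lay 27 kb from the 5′ edge, with 45 and 67 tags and folds of 9.99 and 10.9 (10.5 ± 0.665, SD, n = 2). The replicates differed more at 2 other sites. At chr6:17465283-17467382, 52.8 kb into the gene, the tags were 37 and 75 and the folds 5.55 and 11.2 (8.38 ± 4.0, SD, n = 2), with summits 903 bp apart. At chr6:17366521-17368704, 46.5 kb upstream, they were 28 and 49 and the folds 5.94 and 12.0 (8.95 ± 4.26, SD, n = 2).

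The highest mean fold of the 6 Met sites belonged to the site past the 3′ edge, chr6:17538349-17539915, with 30 and 45 tags and folds of 12.3 and 13.8 (13.1 ± 1.09, SD, n = 2). It was the only 1 of the 6 that overlapped no H3K27ac consensus region, and it lay between H3K27me3 regions without touching one. Replicate 2 alone had 5 further SOX10 peaks around Met, with 25 to 50 tags and folds from 5.88 to 9.80. Per RefSeq, the flanking coding genes are Cav1 on the 5′ side and Capza2 on the 3′ side, neither within 50 kb of Met.

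Met lies on chromosome 6, which stood apart in these lists. It had 80.9 and 81.6 H3K27me3 peaks per Mb in replicates 1 and 2, where the other numbered chromosomes had medians of 26.3 and 22.8. The background recovered under H3K27ac peaks was higher on chromosome 6, with medians of 1.59 and 1.53 against 1.23 and 1.16, and the folds lower, with 6.88 and 6.60 against 8.09 and 7.75. The Met H3K27ac peaks had median backgrounds of 1.63 and 1.55 and median folds of 6.72 and 6.38, near those of their chromosome. Those at Erbb3 had 1.24 and 1.14 for the background and 8.32 and 8.78 for the fold. SOX10 peaks showed the same on chromosome 6, with median backgrounds of 1.95 and 1.98 against 1.43 and 1.49 and median folds of 9.25 and 8.44 against 10.4 and 9.04.

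Among 711 windows of chromosome 6 alone, 0.281% held at least 6 SOX10 regions, 2.11% at least 31 H3K27ac regions and 30.0% at least 12 H3K27me3 regions. The SOX10 and H3K27ac counts of Met were thus high for its chromosome too, and the H3K27me3 count was not. The windows over Met itself are among the 711, so the smallest shares rest on few windows that can include them. The part of the chromosome in the H3K27ac and SOX10 folds of Met was not tested. H3K27me3 was called without a local background, so its folds and coverage at Met were not adjusted for the input there. The part of the chromosome in them was not tested either.

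Ednrb, the G protein-coupled receptor of the group, had no peak of any of the 6 lists inside its span. The strongest signal lay beyond its 3′ end. There the SOX10 site chr14:104176779-104178632 had 42 tags and a fold of 14.5 in replicate 1 and 60 tags and a fold of 22.1 in replicate 2 (18.3 ± 5.35, SD, n = 2). This was the highest mean fold of the 10 SOX10 sites, and 86.7% of all consensus sites had a lower one.

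The summit of the Ednrb site, that of replicate 2, lay 35.0 kb past the 3′ edge, and the replicates' summits were 625 bp apart. The recovered background of this site was 1.00 times the genome-wide level in both replicates. Over the SOX10 peaks of chromosome 14, its 10th percentile was 1.00 in both replicates too. A value of 1.00 may thus be a floor that hides lower input. An H3K27ac region, chr14:104178350-104178756, overlapped the site on the side of the gene, 392 bp from the summit, with 44 and 20 tags and folds of 8.74 and 7.71 (8.23 ± 0.728, SD, n = 2). Replicate 2 also had an H3K27ac peak on the other side of the summit (21 tags, fold 9.43), which replicate 1 did not call.

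The other H3K27ac region of Ednrb, chr14:104290326-104290743, lay 47.6 kb upstream, with 36 and 25 tags and folds of 8.74 and 8.17 (8.46 ± 0.403, SD, n = 2). A SOX10 peak of replicate 2 alone overlapped it (24 tags, fold 5.70). H3K27me3 had 3 peaks in replicate 1 and 1 in replicate 2 around Ednrb, with 34 to 78 tags, and none overlapped a peak of the other replicate. The nearest H3K27me3 consensus region lay 72.3 kb upstream. Per RefSeq, the flanking coding genes are Pou4f1 on the 5′ side and Slain1 on the 3′ side, neither within 50 kb of Ednrb.

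**Figure D3:**
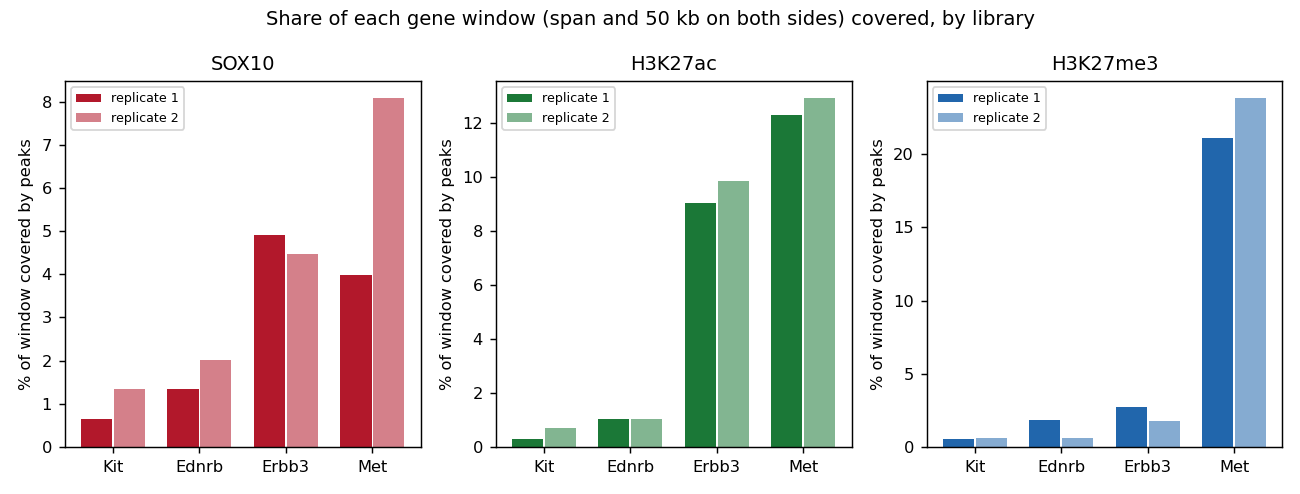
Percent of each gene's window, its span and 50 kb on both sides, covered by peaks of SOX10, H3K27ac and H3K27me3 in each of the 2 replicates. H3K27ac covers 12.3 and 12.9% at Met, 9.03 and 9.84% at Erbb3, 1.03 and 1.05% at Ednrb, and 0.293 and 0.692% at Kit.

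The share of the window covered by H3K27ac peaks put the genes in the same order in both libraries: Met, Erbb3, Ednrb, Kit. For SOX10 the order of Met and Erbb3 depended on the library, with 3.98 and 4.92% in replicate 1 and 8.07 and 4.48% in replicate 2. Ednrb followed with 1.35 and 2.02%, and Kit with 0.658 and 1.35%. H3K27me3 peaks covered 21.1 and 23.8% of the Met window and at most 2.71% of any other. They were called without a local background, so this coverage is not adjusted for the input of chromosome 6.

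Of the 10 SOX10 consensus sites at the 4 genes, 8 overlapped an H3K27ac consensus region, where 53.2% of all SOX10 sites did. The other 2 were the sites past the 3′ ends of Kit and Met. None of the 10 overlapped H3K27me3, where 1.32% of all sites did. In the other direction, SOX10 overlapped 14 of the 47 H3K27ac consensus regions (9 of 31 at Met, 4 of 14 at Erbb3, 1 of 2 at Ednrb), where 9.66% of all H3K27ac regions did. Several of these sites and regions share an acetylated cluster, and the counts were not tested. The 10 SOX10 sites were also wider, with a median of 1849.5 bp against 1150 bp for all SOX10 sites. An overlap needs only 1 bp, so the shares are not at equal width.

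At 3 of the 10 sites the summit was uncovered with H3K27ac within 1 kb on both sides, where 20.9% of all sites had this form. These were the Erbb3 site inside the gene and the Met sites 4.3 kb upstream and 27 kb into the gene. The gaps were narrow at Met: H3K27ac lay 79 bp from the first summit on the 5′ side and 97 bp on the 3′ side, and 114 and 90 bp from the second. The H3K27ac lists were called with a tag distance of 50 and 51 bp, far below that of the other antibodies. The part of this setting in the gaps and in the counts of H3K27ac regions was not tested. The summit was inside an H3K27ac region at 3 sites (16.1% of all), had H3K27ac within 1 kb on a single side at 2 (20.7%) and had none within 1 kb at 2 (42.4%). These forms rest on the summit of the replicate with the higher fold. At both Met sites with H3K27ac on both sides, the replicate 1 summit lay inside an H3K27ac region. At the Ednrb site, of the one-sided form, the replicate 1 summit lay more than 1 kb from H3K27ac. At the other one-sided site, in Met, the replicates' summits lay on opposite sides of the region. When H3K27ac regions less than 1 kb apart were joined, 0 sites kept H3K27ac on both sides of an uncovered summit.

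**Figure D4:**
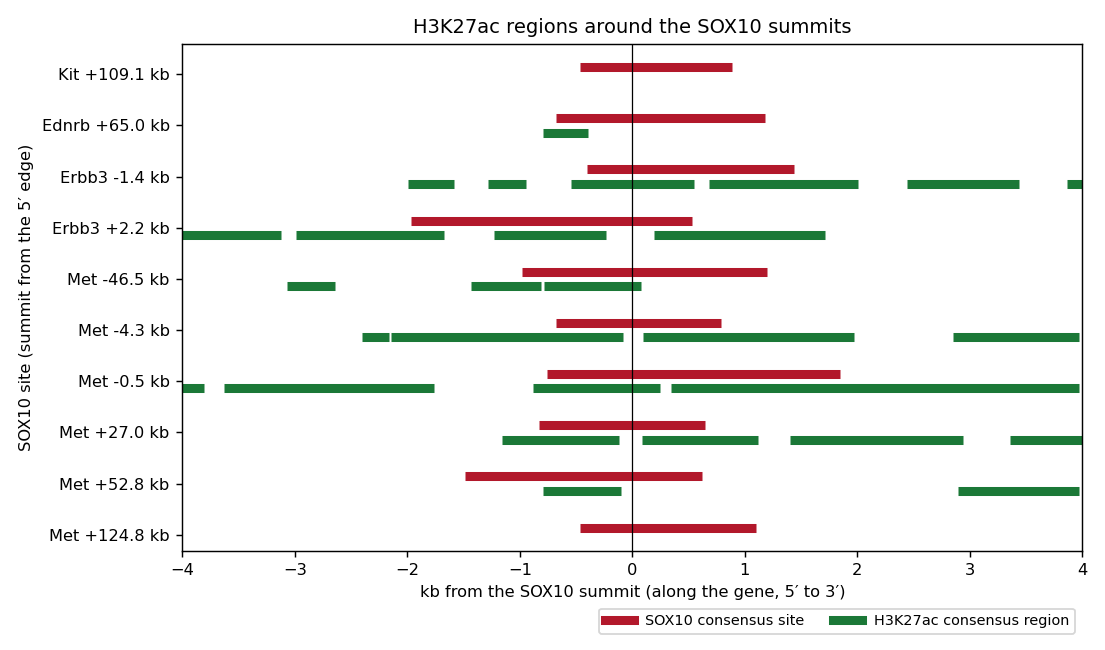
SOX10 consensus sites (red) and H3K27ac consensus regions (green) around the SOX10 summit, in kb along the direction of the gene, with 1 row for each of the 10 sites, named by its distance from the 5′ edge. The summit is that of the replicate with the higher fold. H3K27ac stands on both sides of an uncovered summit at Erbb3 +2.2 kb, Met -4.3 kb and Met +27 kb, and is missing at Kit +109.1 kb and Met +124.8 kb.

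The order of the SOX10 sites depended on the measure. By fold over the local input, the Ednrb site came first (18.3 ± 5.35), then the Erbb3 site inside the gene (15.6 ± 1.45) and the Met site past the 3′ edge (13.1 ± 1.09). The first and the second differed by less than the SD of the first. By summit height, the fold multiplied by the recovered background, the Met site over the 5′ edge came first, with 54.0 and 43.6 times the genome-wide level (48.8 ± 7.37, SD, n = 2). The Erbb3 site inside the gene followed with 36.9 and 45.1 (41.0 ± 5.82, SD, n = 2), and the replicates of these 2 sites overlapped in height. Divided by the median SOX10 background of its chromosome relative to the other numbered chromosomes, a scale chosen after seeing the data, the height was 36.2 ± 4.68 at the Met site and 42.0 ± 7.28 at the Erbb3 site (SD, n = 2). The first rank thus turned with this scale, and the replicates still overlapped.

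The other sites had mean heights between 15.1 and 25.4, where the median over all SOX10 sites was 18.8. The Met site over the 5′ edge was above 96.7% of all sites by height and above 21.3% by fold. The Ednrb site was above 47.4% by height and 86.7% by fold, and the Kit site above 46.0% by height and 21.0% by fold. The Erbb3 site inside the gene was high by both measures, above 93.8% of sites by height and 77.8% by fold.

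**Figure D5:**
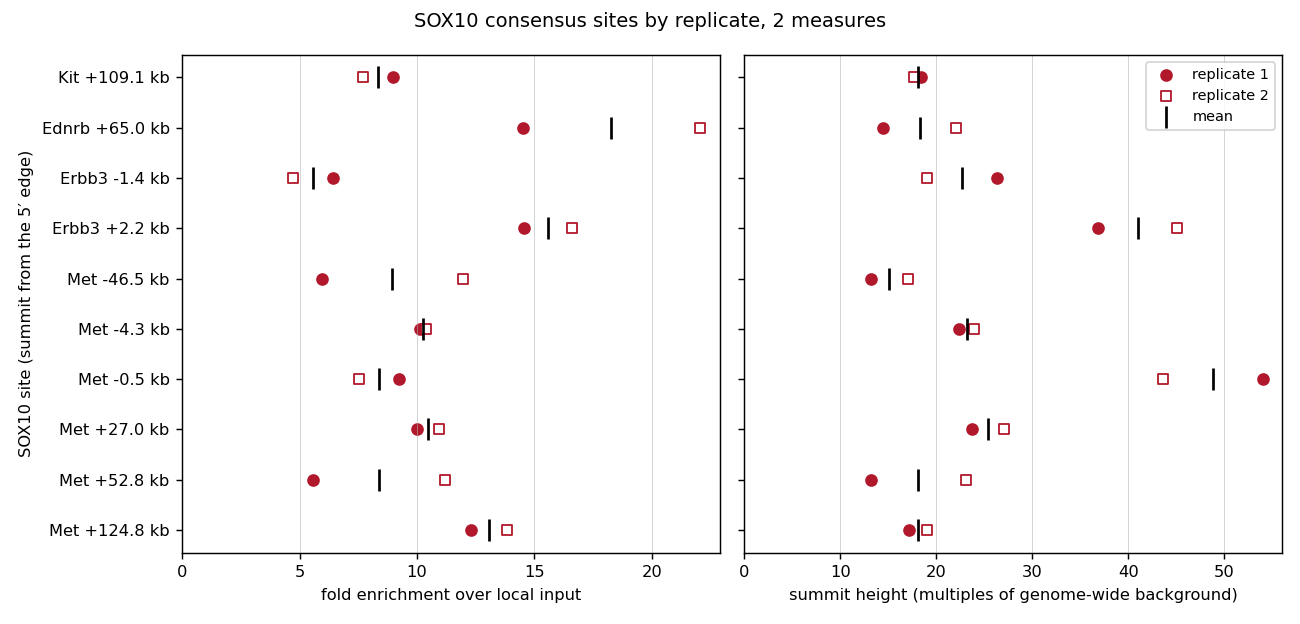
The 10 SOX10 consensus sites, named by gene and summit distance in kb from the 5′ edge, with fold enrichment over the local input and summit height in multiples of the genome-wide background in each replicate and as means. The Ednrb site has the highest mean by fold, and the sites Met -0.5 kb and Erbb3 +2.2 kb by height.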

How the data were processed

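ChIP-seq peaks of SOX10, H3K27ac and H3K27me3 (2 libraries each) were used as deposited, in mm9 per the submitters' processing notes. The aligner was not given in the sources used here. MACS 1.4.2, per the file headers, called peaks in each library alone at p 1e-05, without a local background for H3K27me3. Its tag distance d was 50 and 51 bp for H3K27ac, with tags of 51 bp. For H3K27me3 it was 200 bp, and for SOX10 225 and 212 bp. Per the file headers, each peak has a tag count, a p value as -log10 p multiplied by 10, a fold enrichment (the ratio of its summit to the input background) and an FDR in percent. The SOX10 input kept 12059585 tags, and that of the histone marks 42782172. Both replicates of an antibody were called against the same input. The SDs of folds and heights therefore leave out the variation of the input.

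Peaks of both replicates sharing at least 1 bp were merged with Python 3.11.15, pandas 2.3.3 and scipy 1.17.1. A recovered background is the Poisson mean at which a peak's tags give its p, over the genome-wide level of the smaller library of ChIP and input. It takes the listed tags as being on that scale. It stands for the background used in calling the peak, which may draw on sequence wider than the peak. It is not a count of input tags under the peak. In the H3K27me3 lists, called without a local background, it was within 1% of that level at 96.8% and 95.2% of peaks. The overlap, consensus, summit and background steps were tested on simulated data. The simulated p values came from the same formula that the background step inverts, so this checked the arithmetic only. Named by rule were the 4 genes, all SOX10 consensus regions and, per locus, the 3 H3K27ac regions of highest mean fold, the H3K27ac region at the 5′ edge and the nearest H3K27me3 region. Peaks of single replicates, the other H3K27me3 regions and the remaining H3K27ac regions described were chosen after their values were seen. The members, lists and settings were chosen with earlier results of these data known. A list of ligands and related receptors was not analysed here, since no mm9 gene positions were at hand.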

Additional observations from a re-analysis of the deposited data

How the results depend on the processing

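No paired analysis was possible because no result comes from a test between groups. With a p score of at least 100, which leaves fewer peaks in each list, the 4 loci together had 5 SOX10 regions (from 10), 26 H3K27ac regions (from 47), 7 H3K27me3 regions (from 14) and 3 SOX10 sites at H3K27ac (from 8). Met then had 2 SOX10 regions (from 6), Erbb3 1 (from 2) and Ednrb 0 H3K27ac regions (from 2). The SOX10 regions lost included the Met site over the 5′ edge (scores of 113 and 88.0). The Erbb3 site upstream of the span (108 and 72.3) was lost too. The Erbb3 site inside the gene and the Met sites 4.3 kb upstream and 27 kb into the gene stayed. Leaving out a replicate, which counts every peak of the other, gave 13 to 18 SOX10 regions, 85 to 93 for H3K27ac, 29 to 31 for H3K27me3, 10 to 14 SOX10 sites at H3K27ac, and 3 to 7 with H3K27ac on both sides of the summit. Kit then had 2 to 6 H3K27ac regions (from 0). Windows of 20 and 100 kb gave 5 and 24 H3K27me3 regions. The larger gave 5 SOX10 sites with H3K27ac on both sides (from 3), and the smaller left 0 SOX10 regions at Kit and at Ednrb. Joining H3K27ac regions less than 1 kb apart gave 0 sites with H3K27ac on both sides. Dividing SOX10 heights by the chromosome background, added after seeing the data, moved the Met site over the 5′ edge from 48.8 to 36.2 and the Erbb3 site from 41.0 to 42.0, which turned their order. Requiring an overlap of 50% of the shorter region moved none of these counts over the 4 loci by over 1.5 times.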

Other observations

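At 3 places, chosen after their values were seen, peaks of both histone marks overlapped and each was called in a single replicate of its antibody. At Kit, 35.1 kb upstream, an H3K27ac peak of replicate 1 (34 tags, fold 5.69) lay within an H3K27me3 peak of replicate 1 (73 tags, fold 6.56), and the background recovered under the H3K27ac peak was 1.54 times the genome-wide level. At Ednrb, 51.9 kb from the 5′ edge and past the 3′ edge, an H3K27ac peak of replicate 2 (38 tags, fold 5.53) lay within an H3K27me3 peak of replicate 1 (40 tags, fold 5.03), with a background of 1.86 times that level. At Met, 11.3 kb upstream, an H3K27ac peak of replicate 1 (40 tags, fold 5.0) overlapped an H3K27me3 peak of replicate 2 (55 tags, fold 4.81), with a background of 1.75 times that level. Over all H3K27ac peaks the median backgrounds were 1.24 in replicate 1 and 1.17 in replicate 2.

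The authors' FDR was above 1% for 2 of 13 SOX10 member peaks in replicate 1 and for 11 of 18 in replicate 2, where 31.1% and 79.5% of all SOX10 peaks were above it. For H3K27ac it was 2 of 85 and 2 of 93 member peaks (1.13% and 0.798% of all), with the highest values, 6.25% and 2.21%, at the region over the Met 5′ edge. The H3K27ac peaks there also had the highest p scores of the H3K27ac members, 1445 and 1182. For H3K27me3 it was 17 of 31 and 26 of 29 (41.9% and 48.6% of all). High FDRs of H3K27me3 members went with high p scores. In replicate 1 the FDR was 0.61% at a score of 60.4 and 22.65% at 2682. In replicate 2 it was 0.73% at 71.9 and 21.69% at 3100. A high FDR in these lists thus did not mark the weakest peaks.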
